A study of Mus musculus with 18 samples.

Results

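Activity-regulated immediate early genes are the genes that neurons switch on within minutes to hours of synaptic activity. A list of 37 such genes was followed in poly(A) RNA sequencing of cultured mouse cortical neurons. The list was taken by symbol from a table of 43629 gene IDs. All 37 were in the table, and all 37 passed the filter on low counts, which left 15671 genes. Lentivirus was added after 7 days in vitro, and RNA was taken 10 days after that. There were 3 groups of 6 libraries: mSc, which overexpressed the red fluorescent protein mScarlet as a control, Psmb5, which overexpressed a catalytic subunit of the constitutive proteasome, and Psmb8, which overexpressed its interferon-inducible counterpart in the immunoproteasome. All 3 groups carried a lentiviral transgene, and no untransduced group was analysed here. The treatment protocol mentions overexpression of Ifng in every sample, at odds with the treatment tags. Ifng had 11 counts in all over the 18 libraries. The labels do not give the mouse strain, the age of the donors, the promoter of the transgenes, or whether replicates are separate cultures or animals. A p-value here thus refers to variation among the libraries sequenced, part of which may be technical.

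In a resting neuron many immediate early genes are held at low levels with their promoters poised. Calcium that enters through NMDA receptors and L-type channels activates calmodulin-dependent kinases and the MAP kinase cascade, which phosphorylate the transcription factors CREB and SRF/ELK already bound near the genes. The earliest products are themselves transcription factors (Fos, Egr1, Npas4, the NR4A receptors). Phosphatases such as Dusp1 then switch the kinases off, and effectors such as Arc, Bdnf and Nptx2 change synapses. Most of the early mRNAs are short-lived, so their level is widely used as a marker of recent neuronal activity.

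Counts per library ranged from 15337511 to 21074229. The transgenes were in the groups that the labels name: Psmb5 stood at 451 ± 113 CPM (counts scaled to the library's size; SD, n = 6) in Psmb5 libraries against 42.9 ± 1.49 in mSc, and Psmb8 at 887 ± 198 in Psmb8 libraries against 6.28 ± 7.76 in mSc. All 12 excitatory neuron markers passed the filter, and their summed level was 2180 to 3260 CPM in the 18 libraries. Astrocyte markers summed to 5580 to 6550 CPM in the libraries numbered 1 and to 2010 to 2560 in the other 15. Microglia markers summed to 34.6 to 52.0 CPM, with 10 of 13 at a mean below 1 CPM. Each group holds replicates numbered 1 to 6, and libraries of the same number were treated as pairs across groups. What a number stands for is not given in the labels. In bulk RNA, fewer cells of a type and less RNA per cell cannot be told apart.

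CREB binds the cAMP response element, or CRE, whose full form is TGACGTCA and whose core is TGACG. The sequences that follow are stretches upstream of the RefSeq start of members that differed most clearly between replicate numbers (described further on). Holding this element was not a condition for showing them. Each is 150 bases, on the gene's own strand, outside exons of GENCODE's annotation, with CRE cores in capitals on either strand (CGTCA is the core read from the other strand). They were read from RefSeq's GRCm38.p6 promoter windows, and lie at chr12:85473740-85473889 (plus strand) for Fos, chr7:19310052-19310201 (minus) for Fosb, chr8:84978749-84978898 (minus) for Junb, chr15:101266696-101266845 (plus) for Nr4a1 and chr17:26508520-26508669 (minus) for Dusp1.
Fos: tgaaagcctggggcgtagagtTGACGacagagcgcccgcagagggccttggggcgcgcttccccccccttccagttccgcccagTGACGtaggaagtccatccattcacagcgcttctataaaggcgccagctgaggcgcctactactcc
Fosb: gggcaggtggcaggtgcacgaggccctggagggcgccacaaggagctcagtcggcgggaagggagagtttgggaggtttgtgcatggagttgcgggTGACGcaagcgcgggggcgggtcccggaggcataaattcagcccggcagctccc
Junb: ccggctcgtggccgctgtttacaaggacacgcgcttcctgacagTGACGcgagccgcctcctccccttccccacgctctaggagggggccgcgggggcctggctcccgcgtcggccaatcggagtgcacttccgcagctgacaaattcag
Nr4a1: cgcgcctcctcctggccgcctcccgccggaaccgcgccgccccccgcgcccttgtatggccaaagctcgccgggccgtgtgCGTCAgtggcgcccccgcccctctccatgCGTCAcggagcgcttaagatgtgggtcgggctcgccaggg
Dusp1: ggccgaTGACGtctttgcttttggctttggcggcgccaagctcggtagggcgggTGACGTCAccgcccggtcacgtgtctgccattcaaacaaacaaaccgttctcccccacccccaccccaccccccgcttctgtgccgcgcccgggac
Fos holds the core at positions -129 and -66 before its start, Fosb at -60, Junb at -106, and Nr4a1 at -69 and -40. Dusp1 holds it at -191 and in a full TGACGTCA that begins at -143. Npas4 belongs to the same leading members, but its window lies wholly in annotated exons, so no sequence is shown.

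Of the 37 members, 26 matched the RefSeq table, with 42 windows of 250 bases before to 50 after a start. The unmatched members were Egr1, Egr3, Crem, Ier2, Dusp4, Trib1, Sik1, Arc, Nptx2, Nrn1 and Vgf. With both strands searched, the CRE core TGACG was present in 27 of 42 windows (64.3%), in 20 of the 26 genes, against 20.8% of all 32851 windows. The full TGACGTCA, which contains the core, was present in 5 windows (11.9%), those of Btg2, Dusp1, Maff, Pcsk1 and Scg2, against 1.79% of all. The CArG box, bound by SRF, was found in 5 windows of 2 genes, Egr2 and Dusp5 (11.9% against 1.63%). The AP-1 site TGANTCA was found in 2 windows (4.76% against 7.81%) and the EGR site GCGTGGGCG in 1, that of Maff (2.38% against 0.612%). Several genes have more than 1 window, and these shares describe letters in a window, with no test.

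Levels of the members spanned more than 2 orders of magnitude. Per kilobase of exon (GENCODE models, GRCm38), the secreted granule proteins Vgf and Scg2 were the most abundant, with means over 18 libraries of 959 CPM per kb (range 686 to 1230) and 517 (range 214 to 838). The clock repressor Per1 followed at 50.8 (34.9 to 72.5), the secreted pentraxin Nptx2 at 50.3 (14.9 to 91.8), Junb at 42.5 (27.6 to 69.7), Nr4a1 at 41.5 (22.9 to 83.1), Egr1 at 39.8 (21.4 to 67.9) and Jun at 38.9 (31.1 to 50.3). These 6 overlap widely between libraries and have no clear order among themselves. The immediate early transcription factor Fos stood at 32.1 CPM per kb (16.8 to 58.5), Npas4 at 16.6 (5.82 to 37.1) and the synaptic regulator Arc at 13.7 (5.24 to 25.2). The lowest levels were those of Egr2 at 4.12 (1.26 to 9.07), Maff at 4.06, Csrnp1 at 3.79 and the CREB-family gene Crem at 3.60 (2.52 to 4.83), and these also overlap. The least-covered value of any member in any library was the 73 reads of Egr2 in Psmb8 replicate 2, and the highest was the 68788 reads of Vgf.

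**Figure D1:**
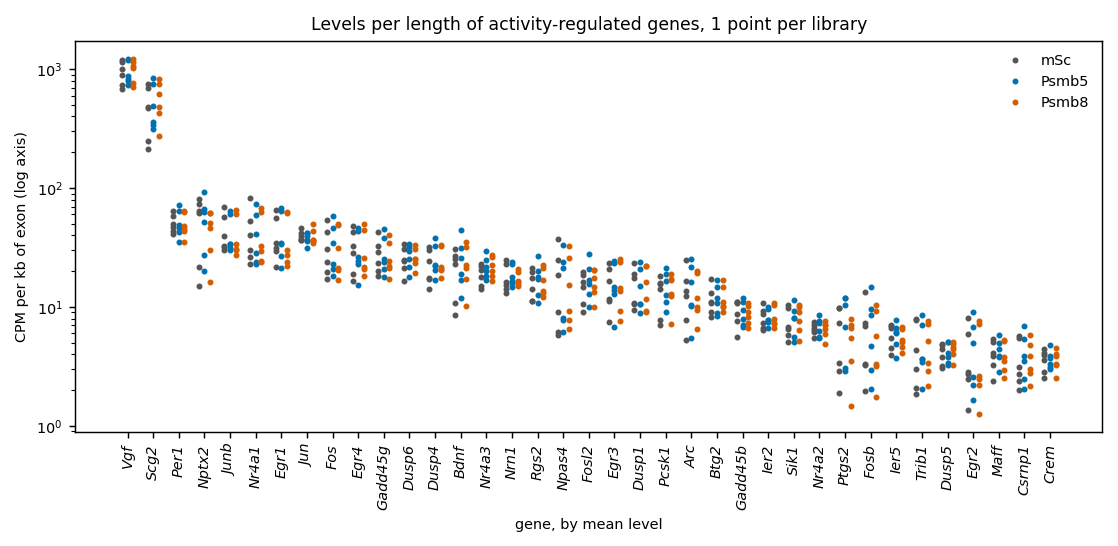
Level of each of the 37 members per kilobase of exon (y axis, CPM per kb, logarithmic) in each of 18 libraries, coloured by group, with genes ordered by mean level. Vgf and Scg2 stand far above the rest, and within each gene the points of the 3 groups intermix.

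The largest differences among these genes lay between replicate numbers and not between the constructs. In a fit with group and replicate number, all 37 members differed between numbers (adjusted p from 8.9e-14 for Npas4 to 0.0053 for Jun in edgeR's quasi-likelihood test). Many other genes did so too: 64.3% of all genes tested passed the same test. The members were spread more widely, with a median of 1.16 between the highest and the lowest replicate mean on the log2 scale against 0.42 over all tested genes. Replicate number held a median of 91.1% of the sum of squares of log2 CPM in the members (range 60.7% to 98.2%) and 66.0% in all tested genes, where its degrees of freedom alone are 29.4% of the total. Group held a median of 1.33% in the members and 4.66% in all tested genes, with 11.8% of the degrees of freedom.

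**Figure D2:**
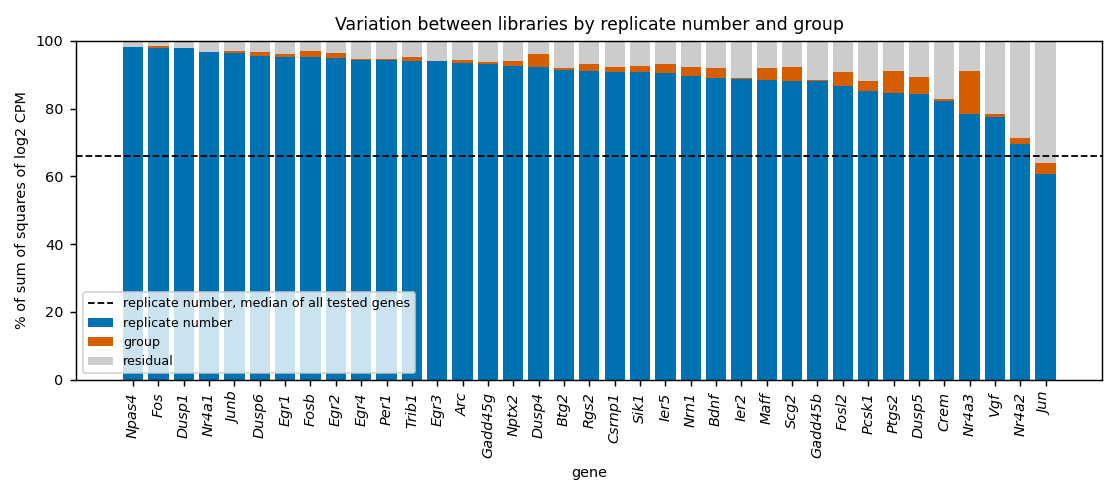
Share of the sum of squares of log2 CPM over 18 libraries (y axis, percent) that went with replicate number, with group and with neither, for each member. The dashed line is the median share of replicate number over all tested genes, 66.0%, and Jun is the only member whose blue bar ends below it.

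Replicate numbers 3 and 6 were the highest and number 2 the lowest for most of the list. Numbers 3 and 6 had the 2 highest means in 31 of 37 members, against 14.3% of all tested genes. In 24 members all 6 libraries numbered 3 or 6 lay above all 12 others, which held for 2.82% of all genes, and no member showed the opposite, which held for 2.60%. Number 3 had the highest mean in 29 members (11.4% of all genes), numbers 1 and 6 in 3 each (20.3% and 15.4%), number 4 in 2 (20.6%), and numbers 2 and 5 in none (17.3% and 15.1%). Number 2 had the lowest mean in 29 members (18.3% of all genes), number 4 in 3 (20.2%), numbers 1 and 5 in 2 each (20.3% and 13.9%), number 3 in 1, Nrn1 (11.2%), and number 6 in none (16.0%). These numbers were singled out after the values were seen. The mean of the 37 members relative to each gene's overall mean was 0.59 and 0.46 on the log2 scale in numbers 3 and 6, and -0.02, -0.63, -0.10 and -0.30 in numbers 1, 2, 4 and 5.

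**Figure D3:**
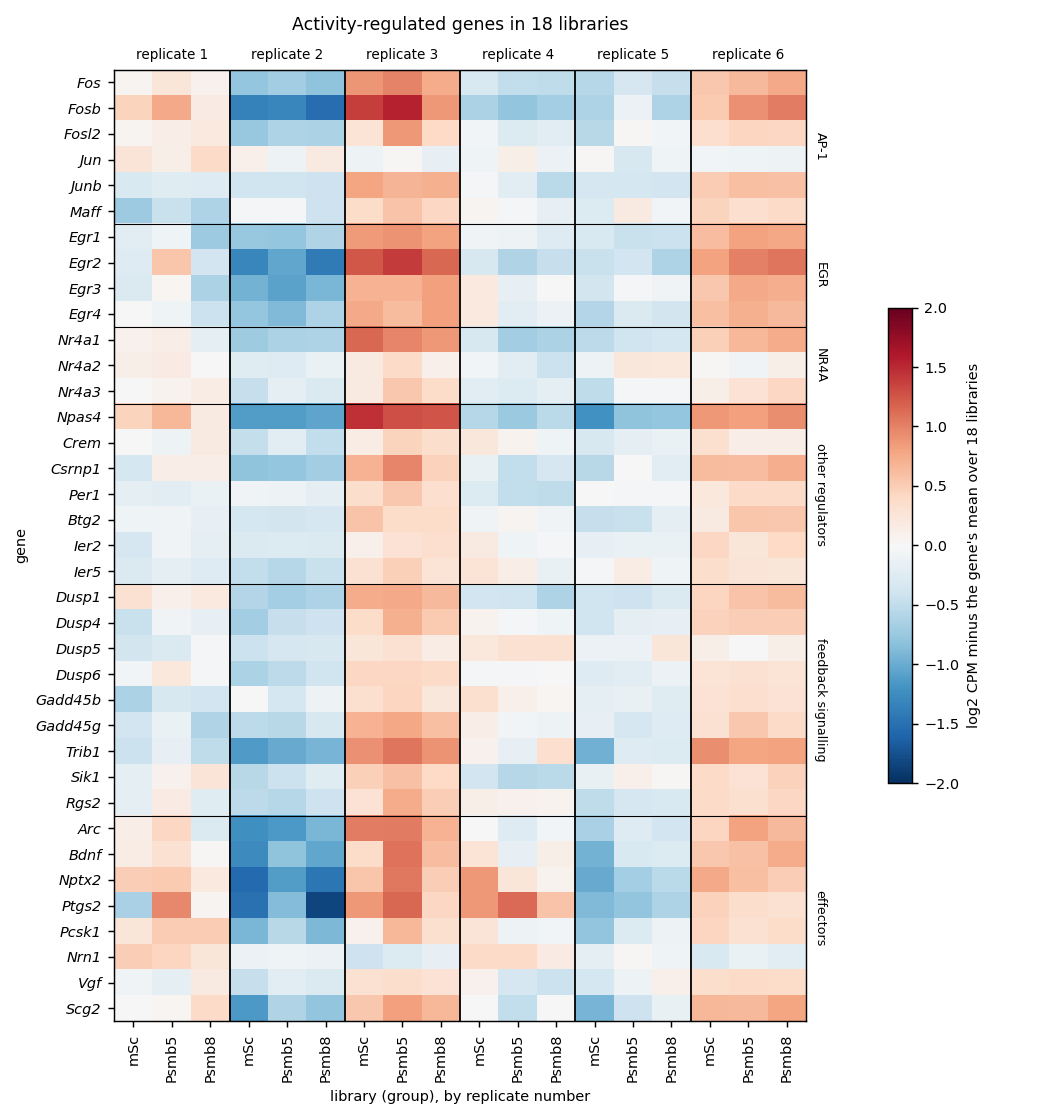
Level of each member (rows, by role) in each library (columns, by replicate number and group) as log2 CPM minus the gene's mean over 18 libraries, red for higher and blue for lower. Columns of replicates 3 and 6 are red for most rows in all 3 groups and columns of replicate 2 are blue, while Jun and Nrn1 do not follow.

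Among the AP-1 factors, which pair as dimers on TGANTCA sites, Fosb had the widest spread of all members. Its level in mSc, Psmb5 and Psmb8 was 83.3, 92.5 and 57.9 CPM in replicate 3 and 45.4, 60.0 and 64.9 in replicate 6. It was 43.1, 53.7 and 35.6 in replicate 1, and between 11.0 and 29.3 in the 9 libraries of replicates 2, 4 and 5. Replicate 3 was 6.32 times replicate 2 by the means of log2 CPM, while replicate 1 in Psmb5 overlapped replicate 6. Fos, the prototype of the family, stood at 127, 138 and 116 CPM in replicate 3, at 100.4, 108 and 117 in replicate 6, and at 39.5 to 81.7 in the other 12 libraries, with no overlap. Fosl2 and Junb also had replicates 3 and 6 above all others: Fosl2 at 181 to 272 against 88.3 to 171 CPM, and Junb at 131 to 160 against 63.6 to 90.8. The small Maf protein gene Maff, which has no activation domain of its own, stood at 12.9 to 15.2 against 6.14 to 11.5 CPM. Jun was the exception: 147, 134 and 160 CPM in replicate 1, 110 to 125 in replicates 3 and 6, and 99.3 to 139 in replicates 2, 4 and 5. Its difference between numbers (adjusted p = 0.0053) was lost without replicate 1 (adjusted p = 0.27, edgeR).

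The 4 EGR zinc-finger factors were all highest in replicates 3 and 6 and lowest in replicate 2, while replicates 1, 4 and 5 took different orders in different genes. Egr2 stood at 27.6, 30.8 and 25.7 CPM in mSc, Psmb5 and Psmb8 in replicate 3, at 20.3, 23.3 and 24.3 in replicate 6, and at 4.29 to 17.02 in the other 12 libraries. Egr1, the most abundant of the family per length, stood at 294, 304 and 285 CPM in replicate 3, at 252, 286 and 279 in replicate 6, and at 95.9 to 156 elsewhere. Egr3 was at 92.7 to 113 CPM in replicates 3 and 6 against 30.1 to 73.2, and Egr4 at 92.6 to 108 against 32.8 to 69.5. In all 4 genes the libraries numbered 3 or 6 lay above every other library.

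The NR4A orphan nuclear receptors, which act without a known classical ligand, split. Nr4a1 was at 184 to 292 CPM in replicates 3 and 6 and at 80.5 to 144 in the other 12 libraries. Nr4a3 overlapped, at 133 to 179 against 85.6 to 136 CPM. Nr4a2 varied little, at 25.4 to 34.97 against 19.7 to 31.2, with 1.38 times between its highest and lowest replicate means (adjusted p = 0.0021).

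Npas4, a transcription factor that is restricted to neurons and answers to calcium influx, gave the largest F of the list. It was at 154, 137 and 134 CPM in mSc, Psmb5 and Psmb8 in replicate 3 and at 102, 98.8 and 106 in replicate 6. It was at 76.2, 88.7 and 63.4 in replicate 1, and at 24.1 to 38.3 in the 9 libraries of replicates 2, 4 and 5. Within a number the 3 groups lay close together, and the numbers fell into separate ranges except 2 and 5, which overlapped. Csrnp1, a nuclear protein with transactivating function, Per1 and the antiproliferative cofactor Btg2 also had replicates 3 and 6 above all others, at 16.8 to 24.2 against 6.92 to 13.4 CPM, 325 to 408 against 197 to 279, and 35.7 to 47.0 against 22.8 to 32.7. Ier2, Ier5 and Crem overlapped, with replicate means that differed by 1.56, 1.81 and 1.64 times.

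Of the 9 members in feedback signalling, Trib1, a pseudokinase that directs proteins to degradation, had the widest spread, at 44.5 to 53.8 CPM in replicates 3 and 6 and 11.6 to 32.6 elsewhere. Dusp1, a nuclear phosphatase of MAP kinases, stood at 78.3, 79.1 and 73.0 CPM in replicate 3, at 62.9, 69.2 and 72.9 in replicate 6, and at 29.3 to 57.8 elsewhere. The ERK phosphatases Dusp4 (82.3 to 103 against 39.0 to 66.3 CPM) and Dusp6 (96.8 to 107 against 51.4 to 92.4) showed the same order without overlap. So did Gadd45g (38.0 to 52.8 against 20.3 to 34.0), Sik1, a kinase that keeps CREB coactivators out of the nucleus (47.2 to 58.4 against 26.1 to 46.4), and Rgs2, which shortens G-protein signals (71.7 to 98.2 against 39.3 to 65.4). Dusp5 and Gadd45b overlapped, and Dusp5 was highest in replicate 4.

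The effectors were less uniform. Arc, which promotes AMPA receptor endocytosis, stood at 76.3, 76.9 and 60.9 CPM in replicate 3, at 50.6, 65.9 and 58.8 in replicate 6, and at 16.0 to 50.1 elsewhere, so that the lowest of replicate 6 barely cleared the highest of replicate 1. The neurotrophin Bdnf was at 168 to 278 CPM in replicates 3 and 6 and 53.8 to 161 elsewhere, Scg2 at 1738 to 2108 against 539 to 1566, and Vgf at 3426 to 3652 against 2038 to 3150. Nptx2, which clusters AMPA receptors, did not separate numbers 3 and 6: it stood at 157, 160 and 128 CPM in replicate 1, 204, 132 and 117 in replicate 4, 164, 233 and 157 in replicate 3 and 188, 169 and 157 in replicate 6, against 37.8 to 77.1 in replicates 2 and 5. Ptgs2, the inducible cyclooxygenase, was highest in replicate 4 at 44.7, 54.1 and 36.6 CPM, close to replicate 3 at 44.5, 54.4 and 32.6, and lowest in replicate 2 at 8.61, 13.4 and 6.76. Pcsk1, a convertase that processes neuropeptides, was highest in replicate 1. Nrn1, a GPI-anchored protein of growing neurites, ran the other way: it stood at 29.7 to 36.1 CPM in replicates 3 and 6, 46.7 to 55.6 in replicate 1, 44.3 to 51.8 in replicate 4 and 34.6 to 40.3 in replicates 2 and 5.

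**Figure D4:**
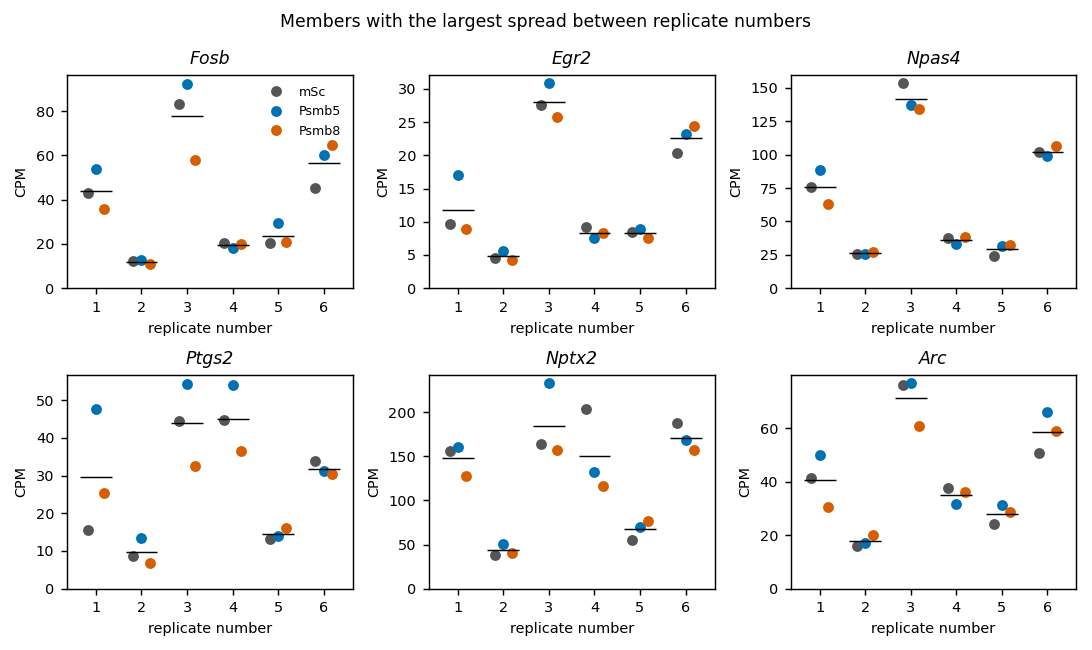
CPM (y axis) of the 6 members with the widest spread, by replicate number (x axis; the numbers have no order) and group (colour), with the mean of each number as a short line. Npas4, Egr2 and Arc are highest in replicates 3 and 6 in every group, while Ptgs2 in replicate 4 is about level with replicate 3 and Nptx2 overlaps between replicates 1, 3, 4 and 6.

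Other features of the libraries moved with the same numbers. Interferon-stimulated genes (25 listed, 21 tested) summed to 266 to 413 CPM in replicate 3, to 648 to 925 in replicate 6 and to 76.6 to 120 in the other 12 libraries. Numbers 3 and 6 had the 2 highest means in 18 of these 21 genes and in 31 of the 37 members (14.3% of all tested genes). Number 3 was the highest in 29 of the members. Oligodendrocyte markers summed to 254 to 458 CPM in numbers 3 and 6 and 580 to 1160 in the others, and microglia markers to 48.3 to 52.0 against 34.6 to 45.3. Only 3 of the 13 microglia markers passed the filter, and numbers 3 and 6 were the 2 highest in 1 of them. Excitatory markers (2290 to 2450 against 2180 to 3260 CPM), inhibitory markers (724 to 897 against 712 to 1600) and astrocyte markers (2030 to 2350 against 2010 to 6550) overlapped. Mitochondrially encoded transcripts were 2.52% to 2.94% of counts in numbers 3 and 6, 2.64% to 3.07% in number 4 and 3.42% to 4.12% in numbers 1, 2 and 5. Library totals overlapped between numbers. The part of these features in the levels of the members was not tested. Without numbers 3 and 6, a setting added after the data were seen, 34 of 37 members still differed among numbers 1, 2, 4 and 5, as did 51.5% of all genes in that fit, and Vgf, Ier2 and Junb did not (adjusted p = 0.21, 0.14 and 0.39, edgeR).

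Between Psmb5 and mSc cultures no member passed the threshold. The count was 0 of 37 in edgeR's quasi-likelihood test at an adjusted p under 0.05, where 0.00638% of all genes, Psmb5 itself, were called, and it was 0 in DESeq2 and limma-voom, with or without the block. None reached an unadjusted p under 0.05 without the replicate block, against 0.944% of all genes. In all 3 comparisons the spread between numbers, wider in the members, counts as error without the block. That makes a small p, or groups without overlap, hard to reach for the members. With replicate number as a block the edgeR count was again 0 of 37 (0.00638% of all genes), and the median SE of a member fell from 0.25 to 0.07 on the log2 scale. In that fit 7 members had an unadjusted p under 0.05 and a value above mSc, none below, where 3.40% of all genes did so upward. Of the members 30 of 37 lay above 0, with a median log2 fold change of 0.07, against 51.0% and 0.00 over all tested genes. Most members rose and fell together over the libraries, so neither count is made of independent values. The median over the members in the 6 same-numbered pairs was 0.16, 0.04, 0.15, -0.19, 0.22 and 0.04, so pair 4 ran against the rest. No member was higher in 6 of 6 pairs (2.04% of all genes) or lower in all 6 (2.20%), and none had groups that did not overlap (0.0319%). Of all genes 3.47% had an unadjusted p under 0.05 downward.

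The members with the smallest p in this comparison were Nr4a3, Dusp4 and Ptgs2. Nr4a3 had a lowest, median and highest level of 85.6, 114 and 139 CPM in mSc and of 100.9, 125 and 179 in Psmb5, and the groups overlapped. Its log2 fold change with the block was 0.22 (SE 0.055, adjusted p = 0.39, edgeR), higher in 5 of 6 pairs. Dusp4 stood at 39.0, 57.1 and 87.7 CPM in mSc and 46.2, 61.3 and 103 in Psmb5, a difference of 0.18 (SE 0.05, adjusted p = 0.53, edgeR with the block) that was positive in 5 of 6 pairs. Ptgs2 stood at 8.61, 24.7 and 44.7 CPM in mSc and 13.4, 39.4 and 54.4 in Psmb5. Its difference of 0.44 (SE 0.15, adjusted p = 0.59, edgeR with the block) drew on pair 1, where it was 1.60, against -0.11 to 0.63 in the other 5 pairs. The others with an unadjusted p under 0.05 were Fosl2 at 0.21, Bdnf at 0.26, Fosb at 0.23 and Rgs2 at 0.14. The most used markers of recent activity did not reach it: Fos 0.09 (SE 0.05), Arc 0.15 (SE 0.09), Npas4 0.04 (SE 0.07) and Egr1 0.03 (SE 0.07).

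Between Psmb8 and mSc cultures no member passed either. In edgeR 0 of 37 were called without the block (0.00638% of all genes; none had an unadjusted p under 0.05, against 2.17% of all genes), and 0 with it (0.325% of all genes). DESeq2 and limma-voom called none without the block. With the block limma-voom called none and DESeq2 called 1, Nr4a3 (adjusted p = 0.018), in a fit that called 135 genes, 1.81% of the 7468 to which it gave an adjusted p. The members lay on both sides of mSc, 19 above and 18 below 0 with the block, with a median of 0.00, against 50.4% above and a median of 0.00 over all tested genes. An unadjusted p under 0.05 with the block was reached by 3 members, all above mSc (5.44% of all genes upward, 5.25% downward). Nr4a3 had a lowest, median and highest level of 99.97, 128 and 164 CPM in Psmb8 against 85.6, 114 and 139 in mSc. It was 0.22 higher on the log2 scale with the block (adjusted p = 0.093, edgeR), in 6 of 6 pairs with differences from 0.03 to 0.49. It was the only member higher in every pair, as 3.18% of all genes were. None was lower in every pair (2.50% of all genes), and the groups overlapped in all 37 (0.121% of all genes did not overlap). Scg2, a precursor of secretoneurin, stood at 691, 1382 and 2062 CPM in Psmb8 and 539, 1196 and 1889 in mSc, a difference of 0.29 (SE 0.10, adjusted p = 0.24, edgeR with the block; 5 of 6 pairs). Dusp4 was at 0.13 (SE 0.05, adjusted p = 0.37, edgeR with the block). Without replicate 4 the blocked fit, which called 0.375% of all genes, called Nr4a3 at 0.26 (adjusted p = 0.024, edgeR) and Scg2 at 0.36 (adjusted p = 0.044, edgeR), and over the 7 blocked fits that left out a number, or numbers 3 and 6 together, the adjusted p ranged up to 0.41 and 0.53. Fos (0.00, SE 0.05), Npas4 (0.00, SE 0.07), Arc (-0.02, SE 0.09) and Egr1 (-0.09, SE 0.07) lay near mSc. This comparison and the one with Psmb5 share the mSc libraries, so the 0.22 of Nr4a3 in each is not independent. The interferon-stimulated list had a median log2 fold change of -0.28 in Psmb5 against mSc and -0.35 in Psmb8 against mSc with the block. Of its 21 tested genes 0 and 1 were called, the 1 downward, against 0.00638% and 0.325% of all genes. Its summed level ranged from 82.4 to 925 CPM in mSc, 82.9 to 824 in Psmb5 and 76.6 to 648 in Psmb8. Its part in these differences was not tested.

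Between the overexpressed subunits themselves, Psmb8 against Psmb5, no member passed: 0 of 37 in edgeR without the block (0.0128% of all genes, and none with an unadjusted p under 0.05 against 1.33% of all genes) and 0 with it (0.0383%). DESeq2 and limma-voom called none with or without the block. With the block 27 of 37 members lay below 0, with a median of -0.05 against 0.00 over all tested genes, of which 49.9% lay above 0. As most members rose and fell together over the libraries, this count is not made of independent values. None was higher or lower in 6 of 6 pairs (2.3% and 2.23% of all genes), and the groups overlapped in all 37 (0.0893% of all genes did not overlap). Of the members 3 had an unadjusted p under 0.05, all lower in Psmb8 (3.91% of all genes downward, 3.73% upward). Ptgs2 was 0.53 lower on the log2 scale in Psmb8, lower in 5 of 6 pairs. Its log2 fold change was -0.53 (SE 0.15, adjusted p = 0.28, edgeR with the block), and its lowest, median and highest levels were 6.76, 27.8 and 36.6 CPM in Psmb8 and 13.4, 39.4 and 54.4 in Psmb5. Fosb was at -0.31 (SE 0.10, adjusted p = 0.42, edgeR with the block), with 11.0, 28.2 and 64.9 CPM in Psmb8 and 12.8, 41.5 and 92.5 in Psmb5. Egr2 was at -0.26 (SE 0.11, adjusted p = 0.59, edgeR with the block), with 4.29, 8.61 and 25.7 CPM against 5.57, 12.9 and 30.8. Both were lower in 4 of 6 pairs, and without the block and without Psmb5 replicate 3 they lay at 0.01 and 0.09. With the block, they stayed below 0 in all 7 fits that left out numbers (-0.422 to -0.214 and -0.386 to -0.116).

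**Figure D5:**
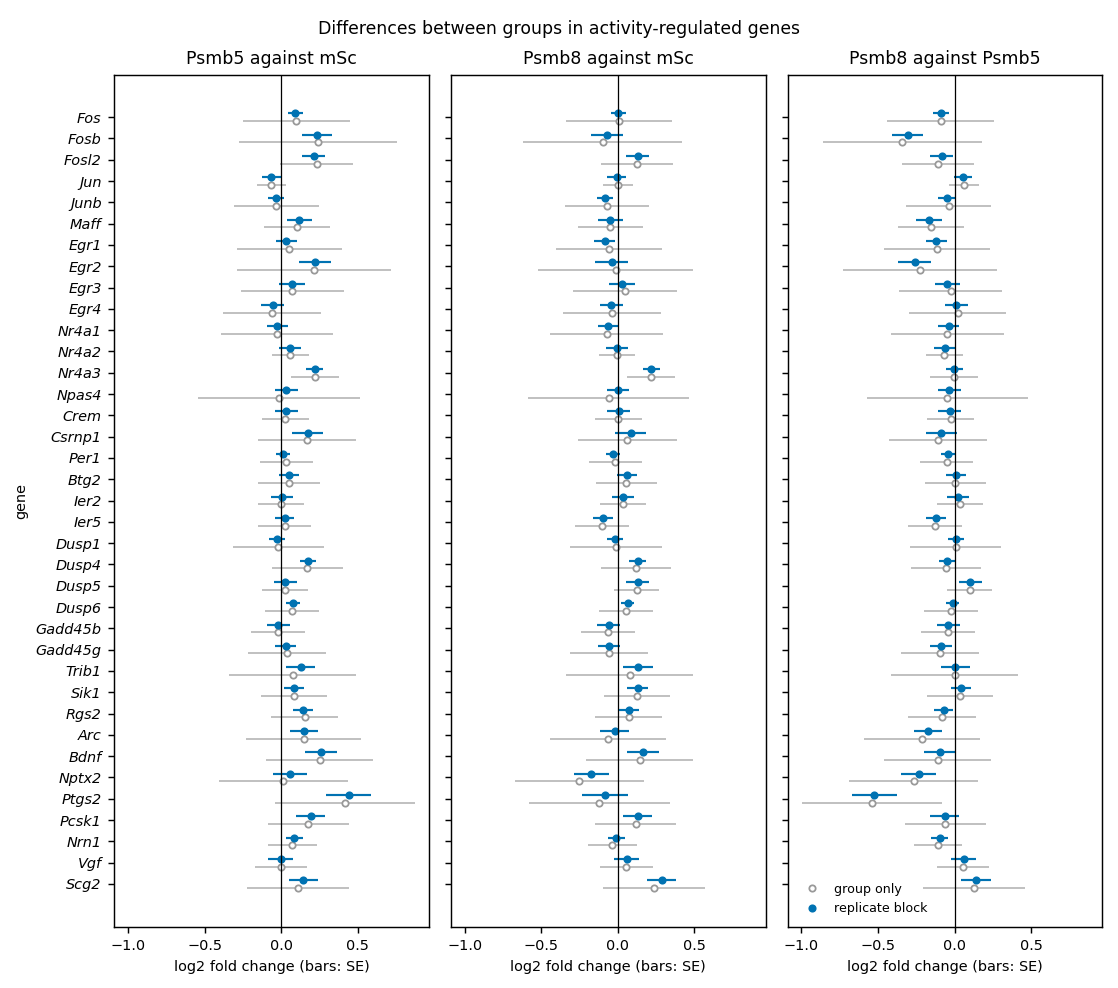
Log2 fold change of each member (x axis, bars are SE) in the 3 comparisons, from the fit with group only (open grey) and with the replicate block (blue). No member passed an adjusted p of 0.05 in either fit, and the grey bars are several times longer than the blue ones for members such as Npas4, Fosb and Egr2.

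The pathway above these genes was examined with lists of the channels, kinases and transcription factors that lead to them. Of 8 calcium entry channels and receptors, 1 was called in Psmb8 against mSc with the block, downward, and none in the other comparisons. This was Grin1, the obligatory NMDA receptor subunit, at -0.34 (SE 0.055, adjusted p = 0.0060, edgeR with the block), lower in 6 of 6 pairs, and it was not called without the block (adjusted p = 1, edgeR). With the block, 0.325% of all genes were called in Psmb8 against mSc, 0.00638% in Psmb5 against mSc and 0.0383% in Psmb8 against Psmb5. None of the 20 calcium and MAP kinases was called in any comparison. The smallest p of these in Psmb8 against mSc was that of Camk2a, a synaptic calmodulin-dependent kinase, at -0.16 (SE 0.04, adjusted p = 0.087, edgeR with the block). None of the 21 transcription factors and cofactors was called. Crtc1, the CREB coactivator of neurons, was at -0.11 in Psmb8 against mSc (SE 0.03, adjusted p = 0.19, edgeR with the block), lower in 6 of 6 pairs. Over all tested genes 2.5% were lower in every pair of that comparison, as Grin1 and Crtc1 were. In Psmb5 against mSc the smallest p values of these lists were those of Grin1 at -0.16 (SE 0.055), Camk2a at -0.10 (SE 0.04) and Mrtfa, a coactivator of SRF, at -0.12 (SE 0.045), with adjusted p from 0.62 to 0.63 (edgeR with the block). Between replicate numbers 8 of 8 channels, 19 of 20 kinases and 13 of 21 transcription factors differed, and numbers 3 and 6 were the 2 highest in 3, 8 and 2 of them. Over all tested genes the shares were 64.3% and 14.3%, so the counts of the transcription factors were near or below the background.

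A further list of 47 activity-regulated genes outside the 37 gave no call in any comparison. Called with the block were 0.00638% of all genes in Psmb5 against mSc, 0.325% in Psmb8 against mSc and 0.0383% in Psmb8 against Psmb5. The list's median log2 fold change with the block was 0.08 in Psmb5 against mSc, 0.03 in Psmb8 against mSc and -0.04 in Psmb8 against Psmb5. The smallest p was that of Inhba, an activin subunit made after synaptic activity, at 0.52 in Psmb5 against mSc (SE 0.16, adjusted p = 0.53, edgeR with the block) and -0.73 in Psmb8 against Psmb5 (SE 0.16, adjusted p = 0.15, lower in 6 of 6 pairs). Inhba had a mean of 3.98 CPM. Of all genes 2.23% were lower in 6 of 6 pairs in Psmb8 against Psmb5. In Psmb8 against mSc the smallest p was that of Syt4, a vesicle protein of dense-core granules. It was at 0.22 (SE 0.07, adjusted p = 0.18, edgeR with the block) and higher in 6 of 6 pairs, as 3.18% of all genes were. Of these 47 genes 41 differed between replicate numbers, and numbers 3 and 6 were the 2 highest in 20 (64.3% and 14.3% of all tested genes), while the members had 37 and 31 of 37.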

How the data were processed

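Values are raw counts in a table the authors deposited, with Ensembl gene IDs as rows and 18 libraries as columns. STAR 2.4, DESeq2 and the builds GRCm39 and mm10 are named in the submitters' processing notes with no role. For the counting program, strand setting and annotation, nothing is given in the sources used here. Hence reads shared with overlapping or antisense genes cannot be told apart. Symbols were found for 42462 of 43629 IDs. The 37 members and all lists were chosen with earlier results of these data known. Counts were tested with edgeR 4.0.16 (R 4.3.3): filterByExpr, TMM scaling, and the quasi-likelihood test on 1 fit of 18 libraries with group as factor; p-values were adjusted over all 15671 genes by Benjamini and Hochberg's method, with a threshold of 0.05. The fit with the replicate number as a block was the alternative, and differences between numbers came from its 5 replicate coefficients. Deviations from the group means correlated at 0.45 to 0.73 in all 18 same-numbered pairs of libraries and at -0.54 to 0.65 (mean -0.12) in 90 other pairs across groups. The ranges overlap, but every same-numbered pair was at 0.45 or above, so the numbers in the titles were taken to pair libraries. SEs were derived from F. Log2 CPM used a prior count of 2. No libraries looked duplicated: chi-square per degree of freedom of the counts was 2.80 to 35.3 over 45 within-group pairs. Other alternatives were DESeq2 1.42.0, limma-voom (limma 3.58.1), DESeq2's size factors, library sizes without the transgenes, other low-count filters, fits of the compared groups only, and each library or number left out. Fits were also run on simulated counts, and the outcome is not reported here. Full values are given for members with the smallest 3 p-values per comparison in the blocked fit and the 6 with the widest spread between numbers, and for further members chosen after their values were seen. Sequences come from RefSeq's promoter table (GRCm38.p6), and lengths from GENCODE M21, a build that may differ from that of the counts.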

Additional observations from a re-analysis of the deposited data

How the results depend on the processing

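With the replicate block in place of group only, no call of a member changed in any of the 3 comparisons: the count stayed at 0 of 37, and medians were 0.07, 0.00 and -0.05. In Psmb8 against mSc the count became 1 with DESeq2 and the replicate block, and the fits that left out libraries gave 0 to 2, with the 2 (Nr4a3 and Scg2) in the blocked fit without replicate 4. The count over all genes in that comparison ranged from 1 in edgeR without the block to 51 with it, and to 135 in DESeq2 with it. Leaving out 1 library without the block gave medians of -0.07 to 0.21 in Psmb5 against mSc. It gave -0.104 to 0.155 in Psmb8 against mSc and -0.185 to 0.085 in Psmb8 against Psmb5. Such a fit leaves the replicate numbers unequal between the groups. With the block, the 7 fits that left out numbers gave 0.05 to 0.102, -0.025 to 0.044 and -0.071 to -0.014, in the same order. The cause of the wider ranges without the block was not tested. In Psmb8 against Psmb5 the fits without the block gave -0.61 to 0.01 for Fosb and -0.534 to 0.088 for Egr2. The values above 0 came without Psmb5 replicate 3. With the block, the 7 fits that left out numbers gave -0.422 to -0.214 for Fosb and -0.386 to -0.116 for Egr2. Members differing between replicate numbers were 34 to 37 in every alternative run; fits of mSc with only Psmb5 or only Psmb8 lost Jun (adjusted p = 0.11) or Nr4a2 (adjusted p = 0.10). The lowest count of a member was 73 reads; the spread between numbers limits the comparisons without the block.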

Other observations

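Among genes outside the list at a mean of 1 CPM or more, the 5 whose log2 CPM over the 18 libraries was most like the mean standardised profile of the 37 members were Tmem200a (Pearson r = 0.98), Rps6ka2 (0.97), Ankrd50 (0.97), Spry2 (0.96) and Mir22hg (0.96). Rps6ka2 encodes a kinase of the RSK family downstream of ERK, and Spry2 an inhibitor of receptor tyrosine kinase signalling. The 18 points share replicate numbers, so these values describe likeness and carry no test. Tmem200a was highest in replicate 6 and the other 4 in replicate 3, with 0.57 to 1.12 between the highest and lowest replicate means on the log2 scale. Within the list, the likeness of a member to the mean of the others was 0.96 for Fos, Egr2, Csrnp1, Arc, Dusp4, Dusp6 and Egr4, and -0.28 for Jun and -0.33 for Nrn1.

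Some activity-regulated genes outside the 37 were highest in another number. The 4 with the widest spread were the neuropeptide genes Tac1, Cartpt and Adcyap1 and the activin subunit gene Inhba, all highest in replicate 1, with 3.11, 2.57, 2.21 and 2.64 between the highest and lowest replicate means on the log2 scale. These were chosen after their values were seen. No library of any group stood apart from the other 5 in the level of a member by Dixon's test, in 111 combinations of gene and group.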
